A study of Homo sapiens with 6 samples.

Results

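The genes described here are 50 genes of G2 phase, mitosis and cytokinesis, given as a fixed list of symbols and divided by function into 7 groups: regulators of mitotic entry, kinetochore and checkpoint genes, the chromosomal passenger complex, spindle motors and assembly factors, condensin and chromosome genes, anaphase genes, and cytokinesis genes. All 50 had at least 1 probe set assigned to them alone, among 19775 genes with such a probe set, and each gene was read from its brightest probe set on average. The arrays came from MDA-MB-231, an invasive breast cancer cell line. The control group was 3 arrays of cells carrying the lentiviral vector pLKO.1 with a hairpin against GFP (shGFP), and the knockdown group was 3 arrays of cells carrying it with a hairpin against ATAD3A (shATAD3A), an ATPase of the inner mitochondrial membrane. Both groups were puromycin resistant, after 2 weeks of selection at 1.0 µg/ml, and were at passage 2. The labels do not say whether the knockdown cells were 1 clone or a mixed population, how many hairpins were used, or whether the replicates were separate cultures, so each p-value reflects variation among these 6 arrays alone, and that variation may be technical.

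All values are log2 expression values, and changes are knockdown minus control. ATAD3A, the targeted gene, read 7.73, 7.78 and 7.80 in control and 7.41, 7.03 and 7.39 in knockdown, and the difference was -0.49 ± 0.105 (SE; limma adjusted p = 0.0129). Its groups did not overlap. ATAD3A was read on a probe set of the x_at type, a type that can match several transcripts. Gene means form a peak of low values, called the low mode here, with an upper bound of 4.43. All 6 markers chosen for mesenchymal-like breast cancer lines (VIM, CD44, CAV1, ANXA1, MSN, AXL) lay above the low mode in both groups. Of these, CD44, CAV1, MSN and AXL fell by 0.25 to 0.45 and ANXA1 rose by 0.17. ESR1, PGR and FOXA1 lay below the boundary. The remaining receptor, ERBB2, rose by 0.51. All 6 measured leukocyte markers lay below the boundary, where CD14 fell by 1.60 and CD3D rose by 0.73, with a mean over the list of 2.98 to 3.10 in control and 2.87 to 2.91 in knockdown arrays. Of 7 fibroblast markers COL1A1 alone lay above it and rose by 1.01, LUM rose by 0.55 within the low mode, and the list means were 3.55 to 3.62 in control and 3.78 to 3.84 in knockdown. The part of these markers in the members' results was not tested. The difference between the 3' and 5' probe sets of ACTB, a sign of RNA integrity, was 3.14 to 3.28 in control and 3.03 to 3.20 in knockdown. For GAPDH it was 0.16 to 0.21 and 0.15 to 0.24.

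A cell enters mitosis when CDK1, bound to cyclin A or B, is switched on by CDC25 phosphatases. Condensin then compacts the chromosomes, kinetochores attach them to a spindle built by motors and assembly factors, and the checkpoint holds back the anaphase-promoting complex until every kinetochore is attached. Anaphase and cytokinesis follow, and the transcripts of most of these genes accumulate in G2 and are shut down in quiescent cells. Their shared promoter elements are the cell cycle genes homology region (CHR), bound by the DREAM and MuvB complexes, and CCAAT boxes, bound by NF-Y. In RNA from bulk cells, a different share of cells in G2 and mitosis and a different amount of RNA per such cell cannot be told apart.

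Promoter sequences are shown for the member with the largest rise, CDC25B, the member with the largest fall, KIF4A, and CCNB1, the partner of CDK1. Those of CCNB2, which rose, and ANLN, which fell, were added after their values were seen, to set a rise and a fall side by side. Each sequence runs from 250 bases before to 50 bases after a start site in RefSeq's GRCh38.p14 annotation, on the gene's own strand (plus for all 5). Capitals mark every match, on either strand, to TTTGAA, the core of the CHR, and to CCAAT. They lie at chr20:3795539-3795838 for CDC25B, at chrX:70289854-70290153 for KIF4A, at chr5:69166900-69167199 for CCNB1, at chr15:59104896-59105195 for CCNB2 and at chr7:36389612-36389911 for ANLN. CDC25B has 4 start sites in the table, and the first of those with the most matches is printed. The window of CCNB1 holds 2 matches to CCAAT and 0 to TTTGAA. Only these exact letters were searched, so a count of 0 does not show that a promoter lacks a CHR.
CDC25B: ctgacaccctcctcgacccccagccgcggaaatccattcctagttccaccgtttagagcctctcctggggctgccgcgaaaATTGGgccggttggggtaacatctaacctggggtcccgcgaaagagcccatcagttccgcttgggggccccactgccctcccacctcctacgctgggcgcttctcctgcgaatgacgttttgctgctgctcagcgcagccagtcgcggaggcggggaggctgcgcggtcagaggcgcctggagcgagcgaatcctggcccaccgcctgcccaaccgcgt
KIF4A: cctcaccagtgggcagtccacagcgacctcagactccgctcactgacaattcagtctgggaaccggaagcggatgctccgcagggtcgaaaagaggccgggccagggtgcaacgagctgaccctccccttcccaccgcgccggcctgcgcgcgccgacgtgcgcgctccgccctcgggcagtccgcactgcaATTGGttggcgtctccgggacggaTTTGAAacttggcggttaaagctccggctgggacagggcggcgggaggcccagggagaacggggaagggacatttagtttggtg
CCNB1: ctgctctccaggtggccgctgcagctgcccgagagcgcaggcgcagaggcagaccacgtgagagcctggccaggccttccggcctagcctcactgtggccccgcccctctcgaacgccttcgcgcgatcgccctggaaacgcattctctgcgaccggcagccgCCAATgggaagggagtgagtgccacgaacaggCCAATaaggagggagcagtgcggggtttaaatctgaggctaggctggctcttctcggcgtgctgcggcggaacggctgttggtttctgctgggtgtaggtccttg
CCNB2: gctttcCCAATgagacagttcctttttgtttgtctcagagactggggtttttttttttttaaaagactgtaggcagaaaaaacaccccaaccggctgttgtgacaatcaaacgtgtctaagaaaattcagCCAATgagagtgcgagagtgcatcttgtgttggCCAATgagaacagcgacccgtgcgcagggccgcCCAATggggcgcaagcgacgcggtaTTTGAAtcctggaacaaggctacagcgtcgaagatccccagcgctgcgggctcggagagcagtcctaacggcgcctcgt
ANLN: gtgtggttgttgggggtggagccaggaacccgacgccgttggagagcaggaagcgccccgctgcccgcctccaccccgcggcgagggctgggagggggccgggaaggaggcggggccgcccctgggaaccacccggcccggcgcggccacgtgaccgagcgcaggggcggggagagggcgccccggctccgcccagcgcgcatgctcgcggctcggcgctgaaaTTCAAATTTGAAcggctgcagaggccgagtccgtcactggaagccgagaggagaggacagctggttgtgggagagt

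The CHR core was found both in members that rose and in members that fell. Promoters were in the table for 43 members (55 promoters), and those of AURKA, FOXM1, TTK, BIRC5, TPX2, UBE2C and RACGAP1 were not matched. TTTGAA stood in 34 of the 55 member promoters (61.8%) and in 15.2% of the 35116 promoters in the table, all of the same length. CCAAT stood in 39 member promoters (70.9%) and in 34.6% of all promoters. In the 50 bases before the start site TTTGAA was found in 36.4% of member promoters and 2.56% of all promoters. Counted by gene, it was found in 7 of the 12 matched members that rose, 8 of the 9 that fell and 16 of the 22 that did not pass the test. CCAAT was found in 11, 4 and 19 of them. CCNB2 and KIF4A, which moved in opposite directions, each hold TTTGAA, 29 and 34 bases before the start site. The matches of the 2 motifs overlapped at 2 places in the member promoters. A match is a description of the letters only.

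**Figure D1:**
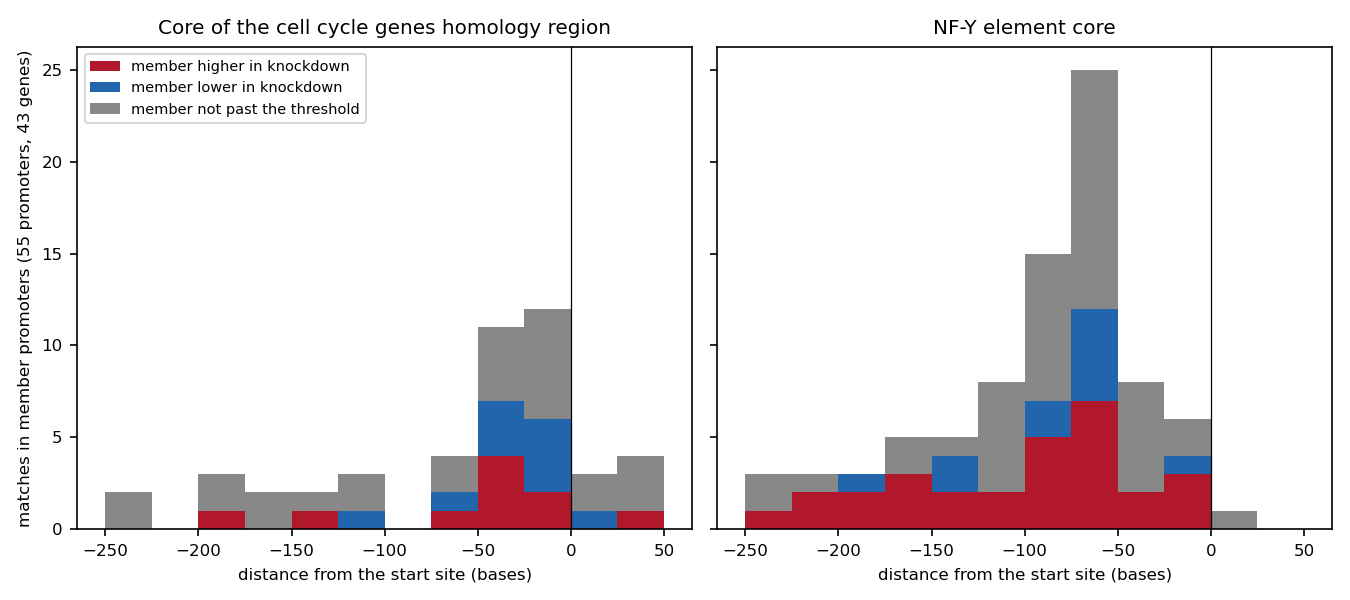
Matches to TTTGAA (left) and CCAAT (right) in the promoters of the members, by distance from the start site in bases, stacked by the member's call in knockdown against control. TTTGAA matches are most frequent in the 50 bases before the start site, and members that rose and members that fell both hold them there.

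The G2 and mitosis genes moved in both directions and by small amounts. Of the 50 members, 14 rose and 10 fell in knockdown (28% and 20%) at an adjusted p of 0.05 in the limma fit over all genes, and 26 did not pass. Of all genes 33.6% were called, 19.7% higher and 13.9% lower. Above the low mode 61.4% of genes were called, 36.1% higher and 25.2% lower. All members except PLK1 lay above that boundary, so their counts stand below the background of such genes. Those shares are also the background for each role group and gene list below, and none was tested against them. The median change of the members was 0.024, beside -0.00084 over all genes and 0.064 over genes above the low mode. Their median absolute change was 0.19, beside 0.30 for genes above the low mode. The changes ran from -0.88 (KIF4A) to 0.85 (CDC25B), so no member reached a 2-fold difference, and 7 of the 24 calls were at least 0.5 in size. The arrays of the groups did not overlap for 18 higher and 12 lower members, beside 42.0% of all genes (24.4% higher and 17.6% lower). Above the low mode 71.3% of genes did not overlap (41.9% higher and 29.4% lower), so the members stand below that share too.

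The counts depend on the probe sets used and on neighbouring genes. When s_at and x_at probe sets, which can match several transcripts, were left out, 38 members kept a value, of which 6 rose and 10 fell. The other 12 have no other type of probe set, and 7 of them are among the 14 rises (CDC25B, FOXM1, CENPA, CDCA8, NCAPD2, MKI67 and CDC20), while none is among the 10 falls. When the median change of the nearest genes above the low mode was subtracted from each gene, a setting chosen after seeing the data, 11 of 49 members rose and 17 fell.

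**Figure D2:**
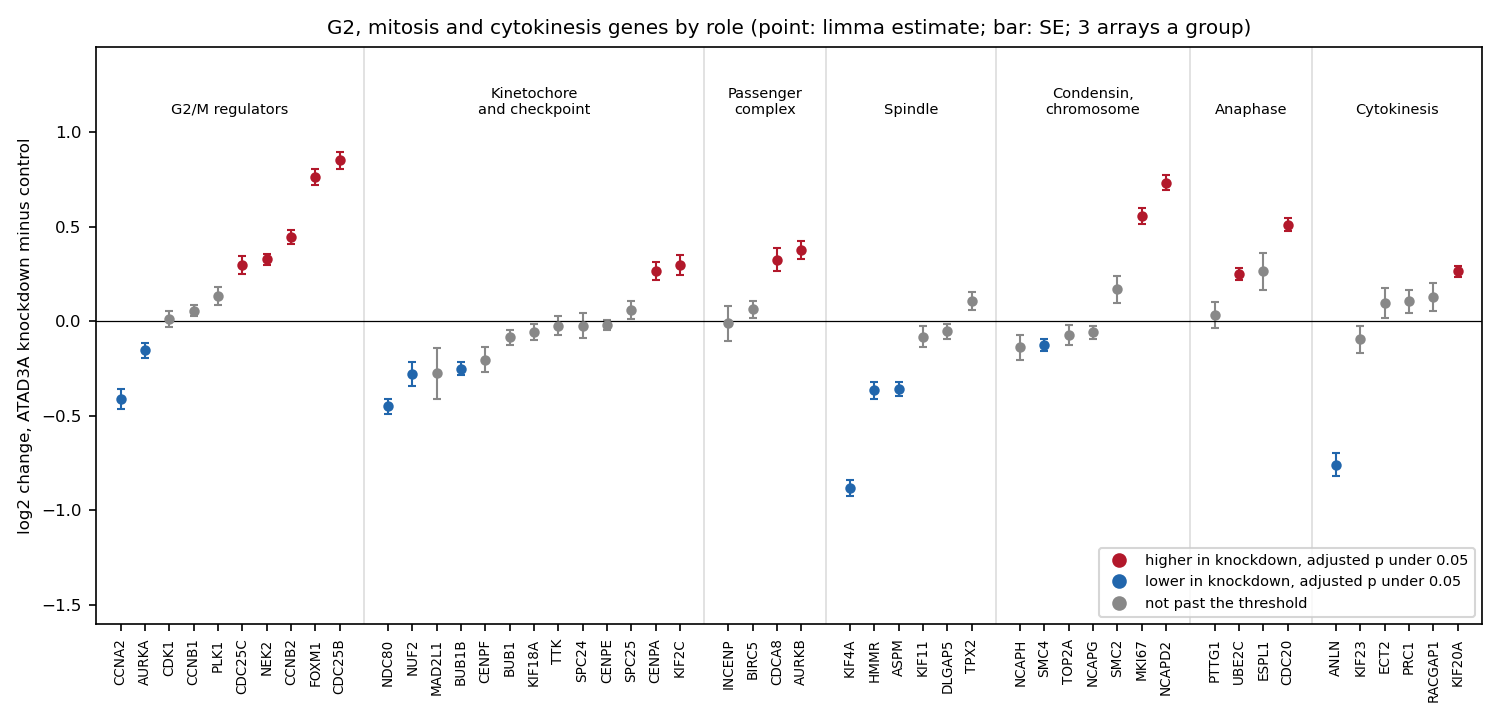
Log2 change (knockdown minus control, limma estimate, bar SE, 3 arrays a group) of each of the 50 members, grouped by role; red points rose, blue points fell and grey points did not pass an adjusted p of 0.05. Rises and falls stand side by side within most roles, from -0.88 (KIF4A) to 0.85 (CDC25B).

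Among the regulators of mitotic entry, 5 of 10 rose and 2 fell, beside 36.1% higher and 25.2% lower among genes above the low mode. The median change of the 10 was 0.21. The largest rise was that of CDC25B, a phosphatase that activates CDK1 at the start of mitosis. CDC25B read 10.07, 10.02 and 9.97 in the control arrays and 10.82, 10.94 and 10.84 in the knockdown arrays. The change was 0.85 ± 0.045 (SE; limma adjusted p = 4.19e-05), or 1.80-fold, and every knockdown array lay above every control array. FOXM1, the transcription factor that drives many G2 genes, read 9.66, 9.67 and 9.65 in control and 10.34, 10.48 and 10.45 in knockdown. It rose by 0.76 ± 0.042 (SE; limma adjusted p = 4.81e-05), on its only probe set, which is of the x_at type. CCNB2, cyclin B2, read 11.88, 11.90 and 11.79 in control and 12.30, 12.32 and 12.30 in knockdown. Its change was 0.44 ± 0.037 (SE; limma adjusted p = 0.000229), and the groups were well apart. The centrosomal kinase NEK2 rose by 0.33 ± 0.028 (SE; limma adjusted p = 0.000259) and CDC25C, another activator of CDK1, by 0.30 ± 0.049 (SE; limma adjusted p = 0.00418). The other CDC25C probe set above the low mode had a change of 0.21 (limma adjusted p = 0.406 over all probe sets). The other NEK2 probe set had a change of 0.26 and did not pass (limma adjusted p = 0.0888 over all probe sets).

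Cyclin A2 went the other way from cyclin B2. CCNA2 read 12.33, 12.34 and 12.30 in control and 12.02, 11.83 and 11.88 in knockdown, without overlap. The change was -0.41 ± 0.053 (SE; limma adjusted p = 0.00155), and its other probe set, with a change of -0.19, did not pass (limma adjusted p = 0.18). The spindle-pole kinase AURKA changed by -0.15 ± 0.041 (SE; limma adjusted p = 0.0301), or 1.11-fold lower. The AURKA call was lost when any 1 of the 6 arrays was left out (adjusted p of 0.0517 to 0.0841). The other AURKA probe set above the low mode had a change of -0.10 (limma adjusted p = 0.159 over all probe sets). CDK1 itself had a change of 0.013 (limma adjusted p = 0.918), with overlapping groups of 13.25, 13.35 and 13.33 in control and 13.37, 13.27 and 13.33 in knockdown. Its main partner CCNB1, cyclin B1, read 13.20, 13.15 and 13.19 in control and 13.21, 13.26 and 13.24 in knockdown, a change of 0.056 (limma adjusted p = 0.23) in which the groups did not overlap. PLK1, a kinase of mitotic entry and spindle assembly, lay in the low mode on its 1 probe set, from 3.61 to 3.83 over the 6 arrays, with a change of 0.13 (limma adjusted p = 0.0927).

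Kinetochore and checkpoint genes moved in both directions. Of 13, 2 rose and 3 fell, beside 36.1% higher and 25.2% lower among genes above the low mode. The median change of the 13 was -0.055 and their median absolute change 0.20, beside 0.19 over all members. On the brightest probe sets none of the calls reached 0.5. NDC80, which binds microtubules in the outer kinetochore, read 11.98, 11.99 and 12.02 in control and 11.52, 11.50 and 11.62 in knockdown. It changed by -0.45 ± 0.039 (SE; limma adjusted p = 0.000284), with no overlap. NUF2, the partner of NDC80 in the same complex, read 11.93, 12.00 and 11.95 in control and 11.67, 11.57 and 11.81 in knockdown, and the difference was -0.28 ± 0.064 (SE; limma adjusted p = 0.0177). The NUF2 call was lost without control replicate 2, control replicate 3 or knockdown replicate 1, with an adjusted p of 0.0519 to 0.0617. SPC24 and SPC25, which anchor that complex to the inner kinetochore, had changes of -0.024 (limma adjusted p = 0.899) and 0.058 (limma adjusted p = 0.507), and their groups overlapped.

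The depolymerising kinesin KIF2C, which corrects faulty attachments, read 12.04, 11.91 and 11.95 in control and 12.20, 12.26 and 12.34 in knockdown. It rose by 0.30 ± 0.053 (SE; limma adjusted p = 0.00582), and its other probe set rose by 0.28. CENPA, the histone variant that marks the centromere, rose by 0.27 ± 0.049 (SE; limma adjusted p = 0.00712). Of the checkpoint kinases and their partners, BUB1B changed by -0.25 ± 0.034 (SE; limma adjusted p = 0.0019). The changes of BUB1 and TTK were -0.086 and -0.025, and did not pass (limma adjusted p = 0.166 and 0.849). The checkpoint effector MAD2L1 had a change of -0.28 (limma adjusted p = 0.2). Its knockdown arrays were spread from 13.22 to 13.69, across the lowest control array at 13.63. CENPE, a motor that brings chromosomes to the plate, had -0.021 (limma adjusted p = 0.73) and KIF18A, which damps chromosome movement, -0.055 (limma adjusted p = 0.456). CENPF, a large kinetochore protein of G2 and mitosis, had -0.20 (limma adjusted p = 0.0595) with no overlap between its groups. CENPF passed under 7 of the 17 other settings that kept the threshold of 0.05. Its dimmer probe sets had changes of 0.072 and -0.25 and did not pass (limma adjusted p = 0.227 and 0.126 over all probe sets).

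The chromosomal passenger complex corrects attachments at the centromere and then moves to the midzone. Of its 4 genes, 2 rose and none fell, beside 36.1% higher and 25.2% lower among genes above the low mode. The median change of the 4 was 0.19. At an unadjusted limma p under 0.05 the number lower in this complex was also 0, beside 2992 of 10402 genes above the low mode. Its kinase AURKB read 10.21, 10.06 and 10.13 in control and 10.47, 10.52 and 10.53 in knockdown. The rise was 0.38 ± 0.047 (SE; limma adjusted p = 0.00128), while the other AURKB probe set had a change of -0.084 (limma adjusted p = 0.716). CDCA8, the borealin subunit, read 9.96, 9.79 and 9.89 in control and 10.18, 10.30 and 10.14 in knockdown, a rise of 0.33 ± 0.061 (SE; limma adjusted p = 0.00757). Both genes had all knockdown arrays above all control arrays. BIRC5 (survivin) had a change of 0.063 (limma adjusted p = 0.407), and INCENP, the scaffold, one of -0.012 (limma adjusted p = 0.969).

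Spindle motors and assembly factors held 3 falls and no rise among 6 genes, with a median of -0.22. Of genes above the low mode 25.2% fell and 36.1% rose, and this group was not tested against those shares. KIF4A, a chromosome-bound kinesin that also sets the length of the midzone, showed the largest fall of all members. It read 11.05, 10.92 and 10.93 in control and 10.11, 10.09 and 10.06 in knockdown. The change was -0.88 ± 0.043 (SE; limma adjusted p = 3.12e-05), or 1.84-fold lower, and the groups lay far apart. HMMR, a hyaluronan receptor that also acts at spindle poles, read 9.78, 9.78 and 9.89 in control and 9.46, 9.40 and 9.48 in knockdown. The difference was -0.37 ± 0.043 (SE; limma adjusted p = 0.00104). The other HMMR probe set had a change of -0.22 and did not pass (limma adjusted p = 0.142 over all probe sets). ASPM, which focuses spindle poles, read 12.63, 12.66 and 12.58 in control and 12.24, 12.24 and 12.31 in knockdown. Its change was -0.36 ± 0.037 (SE; limma adjusted p = 0.000605), again without overlap. The bipolar motor KIF11 had -0.081 (limma adjusted p = 0.378), DLGAP5, which stabilises kinetochore fibres, -0.053 (limma adjusted p = 0.453) and TPX2, the activator of AURKA, 0.11 (limma adjusted p = 0.177). The groups of KIF11 and DLGAP5 overlapped, and those of TPX2 did not. At an unadjusted limma p under 0.05 the number higher in this group was also 0, beside 4302 of 10402 genes above the low mode.

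Condensin and chromosome genes did not move together. NCAPD2, a HEAT-repeat subunit of condensin I, read 9.67, 9.63 and 9.63 in control and 10.32, 10.36 and 10.44 in knockdown. It rose by 0.73 ± 0.039 (SE; limma adjusted p = 4.43e-05), or 1.66-fold. The ATPase subunit SMC4 read 13.02, 13.02 and 13.03 in control and 12.91, 12.85 and 12.94 in knockdown, and the difference was -0.12 ± 0.032 (SE; limma adjusted p = 0.0262). The SMC4 call was lost when any 1 of the arrays other than knockdown replicate 3 was left out (adjusted p of 0.0541 to 0.0937). The partner ATPase SMC2 had a change of 0.17 (limma adjusted p = 0.151), and the other condensin I subunits NCAPG and NCAPH had -0.058 (limma adjusted p = 0.315) and -0.14 (limma adjusted p = 0.178). TOP2A, the topoisomerase that untangles sister chromatids, had -0.073 (limma adjusted p = 0.412). Its groups overlapped, as did those of SMC2, NCAPG and NCAPH. In the whole group 2 of 7 rose and 1 fell, beside 36.1% higher and 25.2% lower among genes above the low mode.

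MKI67, which encodes the proliferation marker Ki-67, a coat of mitotic chromosomes, gave opposite answers on different probe sets. On the brightest of 4 it read 10.99, 10.96 and 10.98 in control and 11.49, 11.49 and 11.61 in knockdown, a rise of 0.56 ± 0.042 (SE; limma adjusted p = 0.000157). The next brightest read 10.08, 9.92 and 9.98 in control and 10.32, 10.53 and 10.34 in knockdown. Its change was 0.41 (adjusted p = 0.00936 over all probe sets by limma), in the same direction as the brightest. The next one read 9.99, 10.14 and 10.10 in control and 9.62, 9.73 and 9.52 in knockdown, a fall of 0.45 (limma adjusted p = 0.00547 over all probe sets). On the dimmest the change was -0.20 and did not pass (limma adjusted p = 0.18). All 4 lay above the low mode, and the mean over them did not pass (limma adjusted p = 0.265). These probe sets give no single direction for MKI67.

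**Figure D3:**
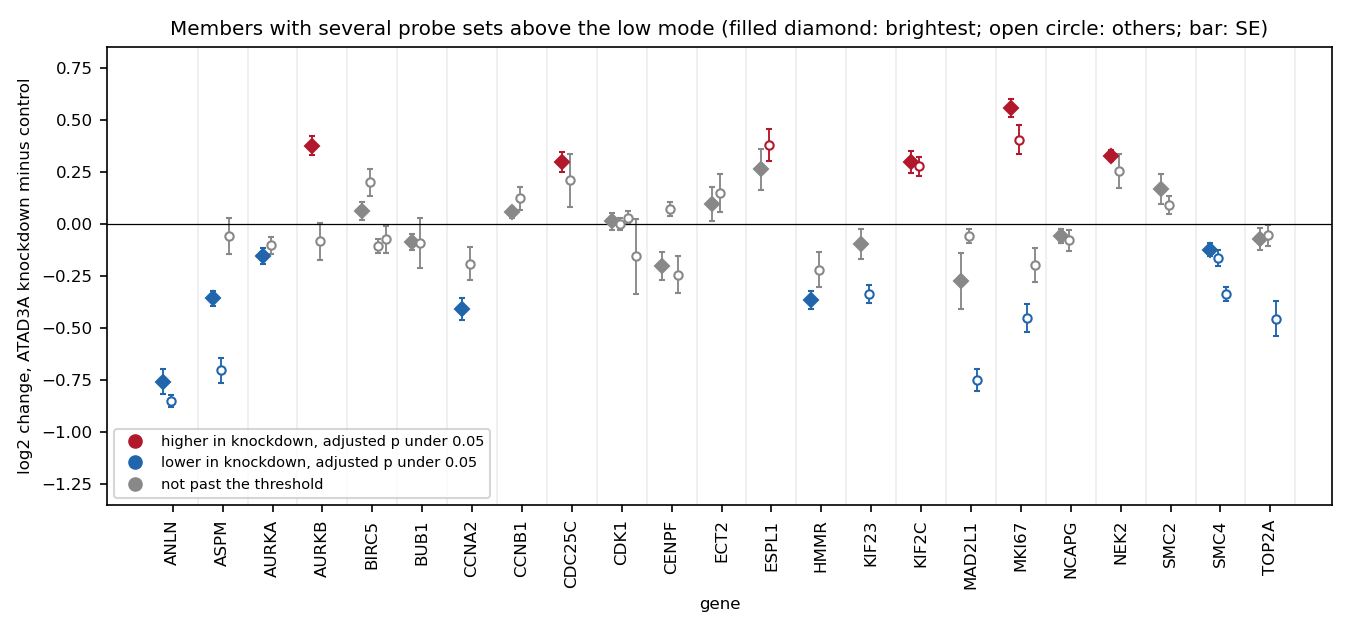
Log2 change (knockdown minus control, bar SE) on every probe set above the low mode for the 23 members with more than 1, with the brightest as a filled diamond. ANLN, ASPM, KIF2C and SMC4 have at least 2 probe sets called in 1 direction, while MKI67 has calls in both directions.

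Of the 50 members, 25 had 1 probe set and 23 had several above the low mode, and among these 23 all signs agreed for 18. Of the 11 whose brightest probe set was called, 5 had another called the same way (ANLN, ASPM, KIF2C, MKI67 and SMC4). MKI67 was the 1 with a call in the opposite direction. In 4 members the brightest probe set did not pass and a dimmer one did. MAD2L1 fell by 0.75, TOP2A by 0.46 and KIF23 by 0.34 on such probe sets, and ESPL1 rose by 0.38. Of 54613 probe sets, 12.0% were called higher and 10.5% lower. These shares include probe sets in the low mode, which the member counts leave out, so they are not a like background. For genes the share called was 33.6% over all and 61.4% above the low mode.

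Of the 4 anaphase genes, 2 rose and none fell, with a median of 0.26, beside 36.1% higher and 25.2% lower among all genes above the low mode. By limma at an unadjusted p under 0.05, 3 were higher (CDC20, UBE2C and ESPL1) and 0 lower. At that threshold 4302 of the 10402 genes above the low mode were higher and 2992 lower. CDC20, which activates the anaphase-promoting complex, read 12.71, 12.64 and 12.65 in control and 13.14, 13.22 and 13.17 in knockdown. It rose by 0.51 ± 0.034 (SE; limma adjusted p = 0.0001), or 1.42-fold. UBE2C, the ubiquitin-conjugating enzyme of that complex, read 13.65, 13.61 and 13.64 in control and 13.84, 13.91 and 13.90 in knockdown, a rise of 0.25 ± 0.032 (SE; limma adjusted p = 0.00138). Every knockdown array of these genes lay above every control array. ESPL1 (separase), the protease that cuts cohesin, had a change of 0.26 (limma adjusted p = 0.0949), and its inhibitor PTTG1 (securin) one of 0.035 (limma adjusted p = 0.843). The groups of ESPL1 did not overlap, and those of PTTG1 did. The neighbours of ESPL1 on the chromosome had a median change of 0.52, and with that median removed ESPL1 read -0.26 and was called lower.

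Cytokinesis genes held 1 large fall and 1 small rise among 6, beside 25.2% lower and 36.1% higher among genes above the low mode. ANLN (anillin), the scaffold of the contractile ring, read 14.27, 14.37 and 14.33 in control and 13.60, 13.45 and 13.65 in knockdown. The change was -0.76 ± 0.060 (SE; limma adjusted p = 0.000195), or 1.69-fold lower, and its other probe set fell by 0.85. KIF20A, a midzone kinesin that carries the passenger complex, read 11.41, 11.43 and 11.45 in control and 11.68, 11.73 and 11.67 in knockdown, a rise of 0.26 ± 0.031 (SE; limma adjusted p = 0.000998). Neither gene's groups overlapped. The centralspindlin subunits KIF23 and RACGAP1 had changes of -0.096 (limma adjusted p = 0.457) and 0.13 (limma adjusted p = 0.283). ECT2, the activator of RHOA that centralspindlin recruits, had 0.097 (limma adjusted p = 0.515), and the midzone bundler PRC1 0.11 (limma adjusted p = 0.291). The groups of these 4 genes overlapped.

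**Figure D4:**
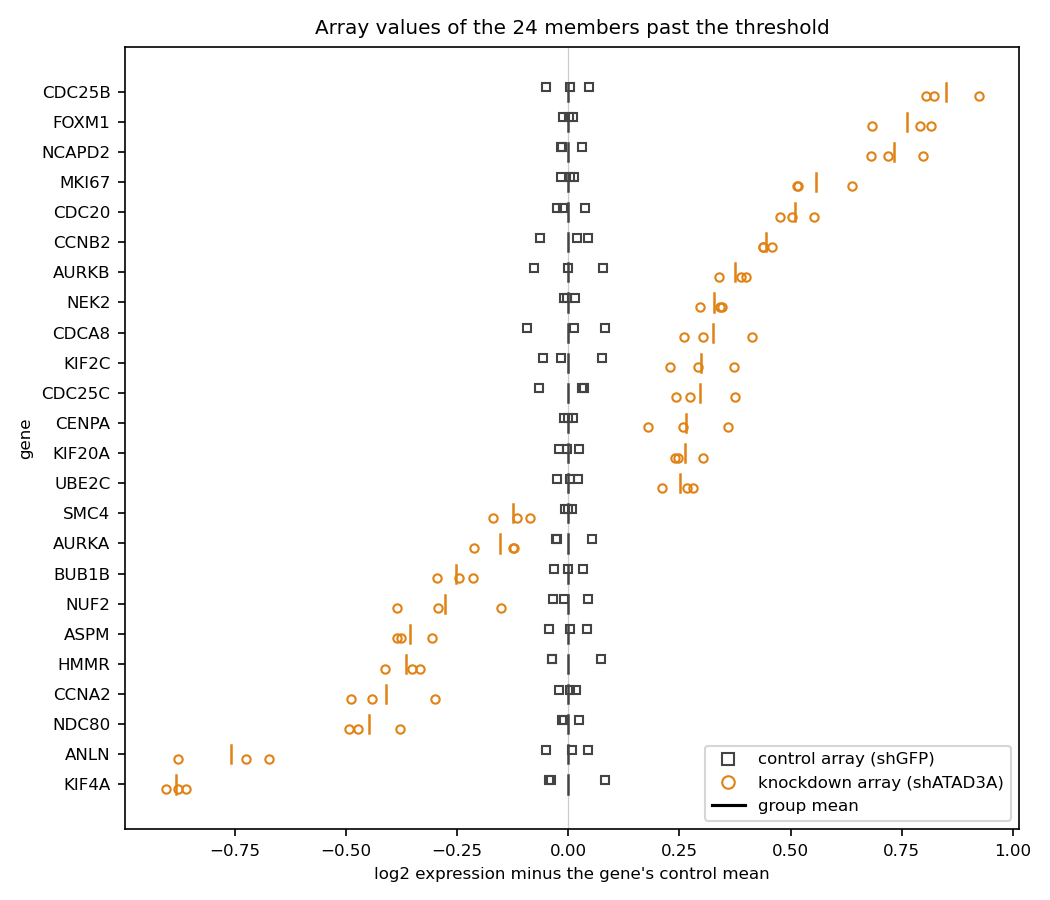
Each array's log2 value minus the gene's control mean for the 24 members past the threshold, with a bar at each group's mean. In all 24 the 3 knockdown arrays (circles) lie on one side of the 3 control arrays (squares).

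The members with the largest changes had neighbours on the chromosome that moved the same way, while other called members were mixed in this. For each member the median change was taken over the 25 measured genes above the low mode on either side, in the order of the GRCh38.p14 gene table. That median was -0.66 around KIF4A, -0.42 around ANLN, -0.35 around NDC80 and -0.30 around CCNA2. Around the members with the largest rises it was 0.56 (NCAPD2), 0.49 (FOXM1) and 0.43 (CDC25B). It was nearer 0 around CCNB2 (0.081), MKI67 (0.11), AURKB (0.08), HMMR (0.017) and ASPM (0.02). Over the 49 members above the low mode the change of a member and that of its neighbours had a Pearson r of 0.70 and a Spearman rho of 0.52, and over all 10385 genes above the low mode 0.34 and 0.39. These are descriptions across genes of the same arrays, and members on one chromosome can share neighbours. Of the 24 called members, 16 had the sign of their neighbours, as had 4566 of the 6377 called genes above the low mode. Among the falls, AURKA, BUB1B, NUF2, SMC4, HMMR and ASPM had neighbour medians above 0 (0.10, 0.14, 0.14, 0.092, 0.017 and 0.02). Among the rises, CDC25C and KIF20A each had a neighbour median of -0.052.

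With the neighbours' median subtracted, KIF4A kept a fall of 0.22 and ANLN one of 0.34. FOXM1, NCAPD2 and CDC25B kept rises of 0.27, 0.18 and 0.42. The calls of CCNA2, NDC80, CENPA, KIF2C and CDCA8 were lost (adjusted p from 0.0541 to 0.492). RACGAP1, whose neighbours had a median change of 0.64, read -0.51 (adjusted p = 0.000755) in this setting. The setting gives that median no error of its own. The part of neighbouring genes in these results was not tested, and DNA copy number was not analysed here.

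**Figure D5:**
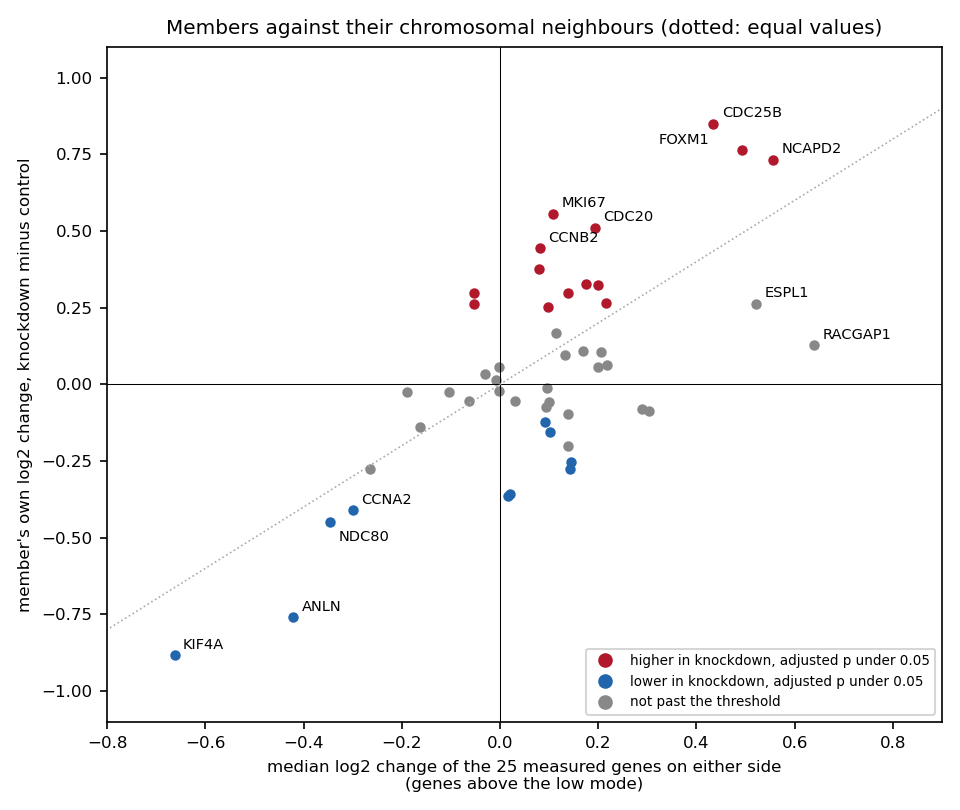
Each member's log2 change against the median log2 change of the 25 measured genes above the low mode on either side of it, for the 49 members above the low mode (PLK1 left out). KIF4A lies at the lower left, with neighbours at -0.66, and NCAPD2, FOXM1 and CDC25B lie at the upper right.

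Other genes of the same machinery, from lists drawn up by function, were likewise mixed. Of 141 measured, 48 rose and 30 fell, with a median of 0.044. Of 23 other genes listed as G2/M regulators, a wider group than mitotic entry, 11 rose and 2 fell. Among all genes above the low mode 36.1% were higher and 25.2% lower, and the lists were not tested against that share. CDC25A, the remaining CDC25 phosphatase, rose by 0.95 and CDCA3, which serves the destruction of WEE1, by 0.91. PLK4, the kinase of centriole duplication, changed by -0.89 and the mitotic kinase PBK by -0.18. Neighbour medians were 0.14 for CDC25A, 0.53 for CDCA3, -0.40 for PLK4 and -0.17 for PBK. A dimmer CDC25A probe set above the low mode had a change of 0.39 and did not pass (limma adjusted p = 0.0562 over all probe sets). Of 16 condensin II and cohesin genes, 7 fell and 2 rose. The cohesin subunits STAG1 and STAG2 changed by -0.76 and -0.74. The median of the neighbours was 0.094 around STAG1 and -0.75 around STAG2. NIPBL, the cohesin loader, rose by 0.43 on its brightest probe set, but had -0.44 (adjusted p = 0.0063) without s_at and x_at probe sets, and CDCA5 (sororin) rose by 0.20.

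Subunits and regulators of the anaphase-promoting complex included 7 rises and 4 falls among 18. TRIP13, which recycles the checkpoint protein MAD2, rose by 0.82 and the ubiquitin chain extender UBE2S by 0.72. Their neighbour medians were 0.48 and 0.23. The core subunits CDC23 and CDC27 changed by -0.97 and -0.69, with neighbour medians of -0.012 and 0.10. A dimmer CDC23 probe set of the x_at type rose by 0.74, and the mean of both did not pass (-0.12, limma adjusted p = 0.442). Of 37 other kinetochore and centromere genes, 10 rose and 7 fell. OIP5, which helps load CENPA, rose by 0.67 and CENPX, a histone-fold protein of the kinetochore, by 0.66, while CENPQ and CENPI of the inner kinetochore changed by -1.02 and -0.62. The median around CENPI was -1.14, below its own change.

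Of 31 other spindle and centrosome genes, 12 rose and 8 fell. TUBGCP4 of the gamma-tubulin ring complex rose by 0.97 on an s_at probe set, while its other probe set had a change of 0.088 and did not pass (limma adjusted p = 0.784). The chromosome-arm kinesin KIF22 rose by 0.69. The centrosome scaffolds CEP192 and PCNT changed by -0.80 and -0.66, with neighbour medians of -0.42 and -0.21. Of 17 other genes of cytokinesis and abscission, 6 rose and 2 fell. CHMP4C, an ESCRT-III subunit that times abscission, read 7.82, 7.79 and 7.96 in control and 9.38, 9.46 and 9.35 in knockdown, a rise of 1.54 ± 0.056 (SE; limma adjusted p = 1.12e-05). Its neighbours had a median of 0.13. VPS4A, the ATPase that remodels ESCRT-III, rose by 0.51, while the microtubule-severing SPAST changed by -0.65 and the filament protein SEPTIN7 by -0.46. Every gene named from these lists had a limma adjusted p of at most 0.0141 on its brightest probe set. With the neighbours' median removed, the calls of KIF22, SEPTIN7, PBK, CDCA5, NIPBL and STAG2 were lost (adjusted p from 0.102 to 0.849), and CENPI turned to 0.52.

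Beside these, the DNA replication and S phase genes included 22 rises and 7 falls among 50 measured, with a median of 0.12. Of genes above the low mode 36.1% rose and 25.2% fell. The G1/S cyclin CCNE1 and the replicative polymerase POLE rose by 1.06 and 1.05, while the helicase subunit GINS4 and thymidylate synthase (TYMS) changed by -0.81 and -0.49. Neighbour medians were 0.22 for CCNE1, 0.43 for POLE, 0.058 for GINS4 and -0.31 for TYMS. The TYMS call was lost with the neighbours' median removed (adjusted p = 0.0506). The difference between that list and the G2 and mitosis members was not tested.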

How the data were processed

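RNA of 6 samples (3 control, 3 knockdown, by their titles) was labelled from 250 ng and hybridised to 1 Affymetrix U133 Plus 2.0 array each. The authors' deposited values are log2 expression values, as read from their range. Their summary method is not given in the sources used here, and the submitters' processing notes name only Partek. The median of an array was 3.16 to 3.23. The 54675 probe sets include 62 controls, which were left out; the platform annotation gives 1 gene symbol for 41091 others, several for 1801 and none for 11721. The brightest probe set stood for each gene, with no filter on dim ones.

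Groups were compared over all 19775 genes with limma 3.58.1 in R 4.3.3 (lmFit, eBayes, two-sided, no covariates), with Benjamini-Hochberg adjustment. The fit was also run on simulated arrays with independent noise and far fewer changed genes than are called here. Because of those differences the simulation does not show that the adjusted p-values hold for these arrays. A separate fit over 54613 probe sets gave their adjusted p. The boundary of the low mode, 4.43, was the lowest density between the modes of gene means, chosen after seeing the data. The number of arrays limits the precision. At most 0.0165% of values were identical between any pair of arrays. The members and gene lists were chosen with earlier results of these data known. All members are named. Array values are given for up to 3 called members with the largest changes per role, with CCNA2, CDK1 and CCNB1 added after seeing their values, and from each other list up to 2 rises and 2 falls. Alternatives covered normalization, dim genes, probe sets, the variance prior, array weights, thresholds, neighbouring genes, the replicate number as a block and each array left out.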

Additional observations from a re-analysis of the deposited data

How the results depend on the processing

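The counts of 14 higher and 10 lower members and of genes called in knockdown against control, all genes (6644), stayed within 1.5 times under normalization, filters on dim genes, averaged probe sets, the variance prior, array weights and thresholds of 0.01 and 0.1. With each array left out in turn, higher members ranged from 14 to 16, lower members from 7 to 9, the members' median from 0.0098 to 0.046, and changed genes from 5845 to 6457. Without s_at and x_at probe sets, 6 members were higher and the median was -0.024; only 38 members kept a probe set there, and 7 of the 14 higher members had none. NIPBL read -0.44. CDC25C read -0.0090, on a probe set in the low mode that can show no change, as is the one left for AURKA. NIPBL read -0.039 with averaged probe sets. With the median of neighbouring genes above the low mode removed, an alternative added after seeing the data, 17 members were lower and their median was -0.036; BIRC5 read -0.16, ESPL1 -0.26, RACGAP1 -0.51, CENPI 0.52 and STAG2 0.012.

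Of the 24 called members, 13 kept their call under all 17 settings at the same threshold that gave them a value, and 21 kept it with each array left out; AURKA, NUF2 and SMC4 did not. The AURKB call was lost with averaged probe sets (adjusted p = 0.0892). Of the 26 members not called, 13 were never called in those settings. With the replicate block, 14 members were higher and 8 lower, and 6057 genes were called in knockdown against control, all genes; AURKA and SMC4 lost their calls. The deviations of same-numbered arrays had correlations of -0.29, -0.21 and 0.072. Those of differently numbered arrays ran from -0.12 to 0.30. With 3 arrays a group these values cannot show whether same-numbered arrays were handled together. Values in the low mode, such as those of PLK1, hold little signal.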

Other observations

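Promoters of DNA replication genes differ from those of the G2 and mitosis members in the letters they hold. TTTGAA, the core of the CHR, stood in the promoters of 2 of 43 matched replication and S phase genes, while it stood in those of 31 of 43 matched members. CCAAT stood in those of 27 and 34. No test of this difference was run.

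A probe set shared by CENPA and SLC35F6 read 11.11, 11.07 and 11.10 in control and 11.47, 11.52 and 11.52 in knockdown, a change of 0.41 (limma adjusted p = 0.00025 over all probe sets). The probe set of CENPA alone rose by 0.27. The shared one cannot be assigned to either gene.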
